A study of Mus musculus with 4 samples.

Results

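The middle-ranked spots were the spots in ranks 40 to 60% of a zone score that orders liver tissue from the pericentral to the periportal end of the lobule. UMIs (unique molecular identifiers, each standing for 1 captured transcript) were summed in every spot over 6 periportal hepatocyte genes, Gls2, Pck1, Hal, Sds, Hsd17b13 and Cyp2f2. The same was done for 6 pericentral genes, Cyp1a2, Cyp2e1, Slc1a2, Gulo, Glul and Oat, and the score was log2 of the first sum over the second, with 1 added to both. Spots with at least 500 UMIs were ranked by it in each section. The rule selected 1650 of 8246 spots, namely 407 of 2036 in section MAFL-1, 376 of 1881 in MAFL-2, 494 of 2467 in MASH-1 and 373 of 1862 in MASH-2. They were compared with the mean of both ends, which were the ranks 0 to 20% (pericentral, 1652 spots) and 80 to 100% (periportal, 1648 spots). The spots were thus chosen by measured values, the UMIs of the 12 score genes, and these genes were left out of every test.

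The sections were fresh-frozen mouse liver on 10x Visium slides, on which each spot captures RNA from several neighbouring cells. MAFL-1 and MAFL-2 carry the model label MAFL and a diet labelled WD for 8 weeks, and MASH-1 and MASH-2 the model label MASH and the same diet for 16 weeks. Model and weeks of diet therefore change together and cannot be told apart. Strain, age and sex are not given in the sources used here, and no section carries another diet label. Whether 2 sections of a group are 2 animals is not stated. Classes were compared within sections, so p-values measure how far class differences vary between sections, which may be technical.

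Blood enters the liver lobule at the portal tracts and leaves at the central vein, and hepatocytes express different genes along that path. The middle of the lobule lies between zones of urea and glucose production on the portal side and of drug metabolism and glutamine synthesis around the central vein. Hepcidin (Hamp), a hormone that limits iron release into the blood, and the insulin-like growth factor binding protein Igfbp2 have been described as midlobular hepatocyte transcripts.

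The middle-ranked spots gave 6272945, 7225037, 12185037 and 7080812 UMIs in the 4 sections (the 2 MAFL sections first, then the 2 MASH sections, each in the order of their numbers, as for every series of 4 values). Their median depth of 15148, 19139, 25010 and 17937 UMIs per spot lay between those of the ends in all 4 sections, and the periportal end was the deepest, with up to 39412. All 15 listed genes of hepatocyte identity passed the filter on low counts. Mitochondrial transcripts lay between the ends too, at 3.96 to 5.34% of UMIs in the middle. In MAFL-1 haemoglobin took 0.568% of UMIs in the middle against 0.205% and 0.112% at the pericentral and periportal ends. The middle sums of 2 sections of a group differed far beyond counting error, with a chi-square per degree of freedom of 23.6 for MAFL and 28.0 for MASH. Pairs of sections shared 1180 to 1723 spot barcodes, of which 44 to 67 were middle-ranked in both; Visium slides reuse 1 barcode set.

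Equal ranks did not mean equal scores. The median score of the middle-ranked spots was 0.54 in MAFL-1, -0.72 in MAFL-2, -1.72 in MASH-1 and -0.98 in MASH-2, so the middle of MAFL-1 stood on the periportal side of 0 and the other middles on the pericentral side. At the lower boundary, spots in ranks 35 to 40% had median scores of -0.46, -1.42, -2.19 and -1.49, and those in ranks 40 to 45%, just inside, -0.05, -1.22, -2.03 and -1.29. At the upper boundary the median was 1, -0.16, -1.29 and -0.59 just inside (ranks 55 to 60%) and 1.30, 0.16, -0.92 and -0.22 just outside. The score thus runs on without a gap at either boundary.

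**Figure D1:**
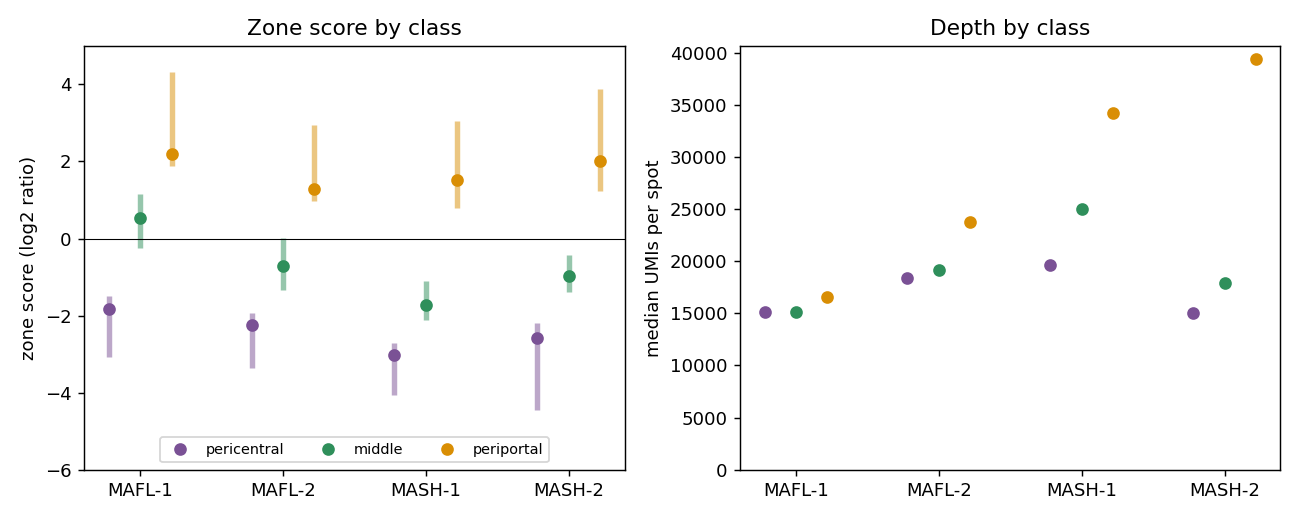
Left, zone score (log2 ratio) of the pericentral, middle and periportal spots in each section, with a point at the median and a bar from the lowest to the highest spot; right, median UMIs per spot of the same classes. The middle medians run from -1.72 in MASH-1 to 0.54 in MAFL-1, and the periportal spots are the deepest in every section.

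The bases before the gene starts of 4 genes are shown because the comparison turns on them: Hamp and its near-copy Hamp2, the first named markers of the middle zone, and Igfbp2 and Ces1e, the 2 genes of at least 20 CPM (a gene's share of all UMIs of a class, after TMM scaling) called above both ends. The sequences are those of RefSeq for GRCm38.p6, the assembly that mm10 names, read 5′ to 3′ on the gene's strand and ending at the base before the annotated gene. Hamp is chr7:30944030-30944279 (minus strand), Hamp2 chr7:30924182-30924431 (minus), Igfbp2 chr1:72824230-72824479 (plus, the first of the gene's listed starts) and Ces1e chr8:93229632-93229869 (minus). Capitals mark matches, on either strand, to 5 motifs. The BMP-responsive element was searched as GGCGCC. For the STAT site the letters were TTCNNNGAA. The nuclear receptor half-site was taken as AGGTCA. The E-box was spelled CACGTG in this search. TATAAA stood for the TATA box.
Hamp: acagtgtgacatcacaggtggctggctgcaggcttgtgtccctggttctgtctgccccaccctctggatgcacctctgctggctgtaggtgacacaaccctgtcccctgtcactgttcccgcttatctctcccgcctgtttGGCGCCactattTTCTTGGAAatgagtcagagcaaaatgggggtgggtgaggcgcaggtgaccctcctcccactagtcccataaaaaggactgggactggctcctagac
Hamp2: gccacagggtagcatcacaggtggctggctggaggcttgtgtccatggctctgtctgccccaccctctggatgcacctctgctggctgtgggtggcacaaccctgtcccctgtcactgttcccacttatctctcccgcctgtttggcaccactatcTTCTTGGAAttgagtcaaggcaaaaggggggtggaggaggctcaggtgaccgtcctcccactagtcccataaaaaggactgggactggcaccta
Igfbp2: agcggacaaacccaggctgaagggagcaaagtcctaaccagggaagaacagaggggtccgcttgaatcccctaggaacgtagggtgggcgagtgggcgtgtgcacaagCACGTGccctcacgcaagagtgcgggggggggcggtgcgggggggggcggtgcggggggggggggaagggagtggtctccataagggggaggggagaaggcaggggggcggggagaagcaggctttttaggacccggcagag
Ces1e: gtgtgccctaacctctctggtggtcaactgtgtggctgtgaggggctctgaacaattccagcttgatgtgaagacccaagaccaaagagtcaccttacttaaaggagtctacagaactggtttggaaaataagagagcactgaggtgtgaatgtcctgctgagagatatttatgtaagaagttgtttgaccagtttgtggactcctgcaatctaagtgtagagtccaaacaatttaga
The BMP-responsive element was found in Hamp alone of the 4, 109 bases before the gene. The STAT site was found in Hamp and Hamp2, 97 and 94 bases before the gene. Igfbp2 held the E-box, 142 bases before the gene, and Ces1e held none of the 5 motifs. Over 32851 promoter windows of 250 bases, the BMP-responsive element occurred in 9.59%, the STAT site in 7.02%, the nuclear receptor half-site in 14.0%, the E-box in 6.02% and the TATA box in 12.4%. A match is a description of these letters and shows no binding.

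Igfbp2 and Ces1e were higher in the middle-ranked spots than at either end of the lobule. Most genes that differed between the ends had their middle level between them, which ranking by a zonation score favours. Of 11359 genes tested, 4 (0.0352%) were above each end with an adjusted p under 0.05 for both differences: Igfbp2, the carboxylesterase Ces1e, and at low level Fam13a and Lnpep. None was below both ends (0 genes, 0%; 369 genes had an unadjusted p under 0.05 for a lower middle in edgeR against the mean of the ends, and DESeq2 called 0). Against the mean of both ends on the log2 scale 5 genes were higher (0.044%) and 3 lower (0.0264%). The other 3 higher and the 3 lower genes did not pass against both ends in that direction.

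Far more genes differed between the ends than between the middle and the mean of the ends. The ends differed in 2552 genes (22.5%), and in 2410 of these (94.4%) the fitted middle lay between them. These genes were picked for differing between the ends of a ranking by zonation. A middle between the ends is thus largely built in, and the share is a description. The middle was above the pericentral end in 203 genes (1.79%) and below it in 268 (2.36%), above the periportal end in 445 (3.92%) and below it in 427 (3.76%). Without a test, the middle was above both ends in 4 of 4 sections for 127 genes (1.12%) and below both for 128 (1.13%). Among 4164 genes of at least 20 CPM, 99.0% lay within 0.25 on the log2 scale of the mean of the ends.

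For genes that differed at least 2-fold between the ends, the middle stood a median of 0.45 of the way from the pericentral to the periportal level on the log2 scale (quartiles 0.34 and 0.55). Over 89 such genes of at least 20 CPM that place was 0.67 in MAFL-1, 0.49 in MAFL-2, 0.28 in MASH-1 and 0.42 in MASH-2. The order of the sections is that of their median scores. These genes follow the score that ranked the spots, so the places are a description.

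**Figure D2:**
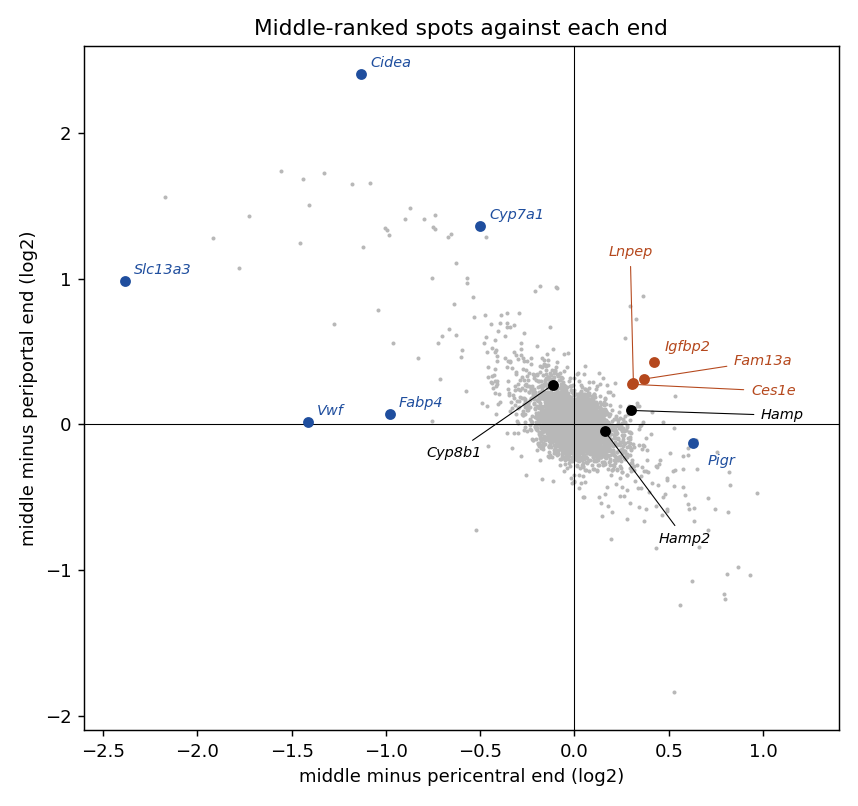
Fitted log2 difference of the middle-ranked spots from the pericentral end (x axis) and from the periportal end (y axis), 1 grey point per gene of at least 20 CPM; red marks genes above both ends by the test, blue the other genes called against the mean of the ends, and black 3 of the named markers (the fourth is Igfbp2). Most genes fall on the diagonal of the slope, and the 4 grey points above Igfbp2 are haemoglobin genes, which were not called.

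Igfbp2, which binds insulin-like growth factors in blood, had the lowest adjusted p of all tested genes. Its level in the middle was 940 CPM in MAFL-1, 1322 in MAFL-2, 1117 in MASH-1 and 928 in MASH-2. At the pericentral end it was 799, 1041, 720 and 673 CPM, and at the periportal end 703, 959, 754 and 765 CPM. The middle was the higher in 4 of 4 sections against either end, by 1.18- to 1.55-fold and 1.21- to 1.48-fold. Levels of different sections overlapped between the classes, since sections differed in overall level. The mean was 1076.5 ± 185 CPM in the middle, 808 ± 164 at the pericentral and 795 ± 112 at the periportal end (SD, n = 4 sections), a log2 difference of 0.43 (SE 0.05, adjusted p = 2.05e-05) from the mean of the ends. The ends themselves differed by -0.01 (periportal minus pericentral, adjusted p = 0.932). With the ranks cut into 10 equal bins from pericentral (bin 1) to periportal (bin 10), Igfbp2 was highest in bin 4 of MAFL-1, bin 5 of MAFL-2 and bin 7 of both MASH sections, and its highest bin was 1.41 to 1.88 times its lowest. The gene lies at chr1:72824480-72852474.

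Ces1e, a liver carboxylesterase of the endoplasmic reticulum, followed Igfbp2. It stood at 266, 308, 321 and 241 CPM in the middle. The pericentral values were 233, 258, 250.2 and 183 CPM and the periportal values 227, 258, 234 and 215 CPM. In each section the middle was the highest of the 3 classes. Over the 10 bins Ces1e was highest in bin 3 of MAFL-1, bin 5 of MAFL-2 and MASH-2, and bin 7 of MASH-1. The difference from the mean of the ends was 0.29 (log2, SE 0.05, adjusted p = 0.0033), or 284 ± 36.8 against 231 ± 33.6 and 234 ± 18.2 CPM (SD, n = 4). Against the pericentral end it was 0.30 (adjusted p = 0.000413) and against the periportal end 0.28 (adjusted p = 0.00088).

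Igfbp2 and Ces1e stayed positive in all 22 alternatives but were not called in each. Igfbp2 was called as a peak in 19 and Ces1e in 18 of the 21 alternatives that can call one. With the ends moved inward to ranks 10 to 30% and 70 to 90%, the difference from the mean of the ends was 0.25 for Igfbp2 (adjusted p = 0.558) and 0.17 for Ces1e (adjusted p = 0.104), and edgeR called 0 genes as peaks or against the mean of the ends (299 higher and 272 lower with an unadjusted p under 0.05). With the replicate number as block in place of the section the differences were 0.43 and 0.29, and neither was called. Leaving out MAFL-1, MAFL-2 or MASH-1 left 2 peaking genes, Igfbp2 and Ces1e, in place of 4, and without MASH-2 there were 3. Against the mean of the ends, leaving out MAFL-1 gave 12 higher and 11 lower genes, leaving out MAFL-2 gave 3 and 1, and leaving out MASH-2 gave 3 higher.

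**Figure D3:**
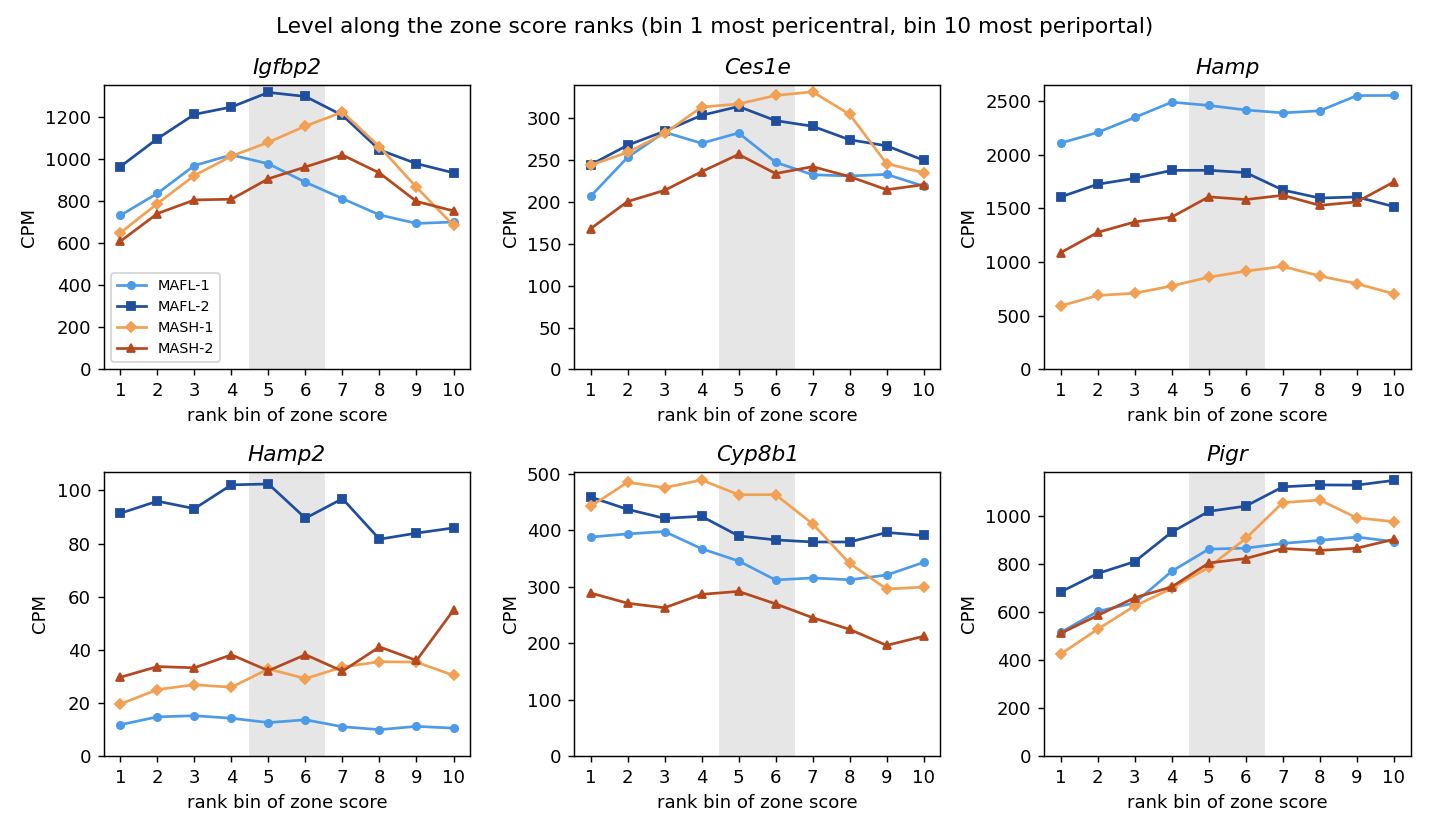
Level in CPM (y axis, from 0) of 6 genes along 10 equal bins of the zone score ranks (bin 1 most pericentral) in each of the 4 sections, 1 line per section; the grey band is the middle class. Igfbp2 and Ces1e rise and fall within the range shown in all 4 sections. The middle class is bins 5 and 6, while Igfbp2 is highest in bins 4, 5, 7 and 7 and Ces1e in bins 3, 5, 7 and 5. Hamp is highest in bin 10 of MAFL-1 and MASH-2, and Pigr levels off.

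Ces1e lies in a cluster of carboxylesterase genes on chromosome 8 (Ces1e at chr8:93201218-93229631, Ces1d at chr8:93166072-93197804). The cluster was listed after the values were seen. Of its 8 genes 6 passed the filter on low counts, and all 6 had a positive difference from the mean of the ends. The 1 called was Ces1e (background 0.044%), whose call was known before the list was made. The median of the 6, Ces1e included, was 0.18 against -0.0019 over all genes tested. Ces1d was 1003, 1256, 1290 and 1044 CPM in the middle and above both ends in 4 of 4 sections (0.15, adjusted p = 0.37). Ces1g was also above both ends in 4 of 4 sections (0.20, adjusted p = 0.17) and passed against the periportal end (0.23, adjusted p = 0.0128) but not the pericentral one (0.18, adjusted p = 0.084). Ces1b, Ces1c and Ces1f had differences of 0.25, 0.06 and 0.04, with no call. These genes are near-copies, and how reads that fit several of them were counted is not given in the sources used here, so their separate values are uncertain.

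By profile the genes most like Igfbp2 were again Ces1e (Pearson r 0.96), Ces1d (0.93) and Ces1g (0.90), followed by the mitochondrial pyruvate carrier subunit Mpc1 (0.82) and Cd302 (0.81). The likeness was computed after the values were seen, over 20 log2 CPM values (5 equal rank classes in each of 4 sections) centred within each section, among 3980 genes. The 20 values share 4 libraries and the depth of their spots, and the r values are a description.

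Fam13a and Lnpep, named because so few genes peaked and chosen after their values were seen, were near 20 CPM. Lnpep, an aminopeptidase that travels with insulin-regulated vesicles, was 20.4, 22.2, 19.2 and 19.3 CPM in the middle, against 16.3 ± 0.727 and 16.4 ± 1.02 CPM at the pericentral and periportal ends (SD, n = 4). Its adjusted p was 0.0386 against the pericentral and 0.0282 against the periportal end. Fam13a was 15.8, 22.9, 30.5 and 16.6 CPM in the middle, with adjusted p of 0.0171 and 0.0241. Each was above both ends in 4 of 4 sections, and each was called as a peak in 5 of the 21 alternatives. Against the mean of the ends neither passed, with 0.34 for Fam13a (adjusted p = 0.123) and 0.30 for Lnpep (adjusted p = 0.17).

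Of the 4 markers named for the midlobular zone only Igfbp2 peaked, so the spots are called middle-ranked here and not midlobular. Hamp was 2446, 1861, 885 and 1576 CPM in the middle. It was 2193, 1681, 639 and 1178 CPM at the pericentral end and 2567, 1562, 732 and 1643 CPM at the periportal end. The middle was above the pericentral end in all 4 sections but above the periportal end in MAFL-2 and MASH-1 only. Hamp was higher in the middle than at the pericentral end (log2 0.30, adjusted p = 0.0102), while the differences from the periportal end (0.10, adjusted p = 0.494) and from the mean of the ends (0.20, SE 0.06, adjusted p = 0.404) did not pass. With a score built from other zonated genes the last difference was 0.23 (adjusted p = 0.0244).

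Hamp2, the second hepcidin gene of mice, was 13.2, 96.7, 30.9 and 35.1 CPM in the middle. Its sections differed far more than its classes, and the difference from the mean of the ends was 0.06 (SE 0.11, adjusted p = 0.98). Hamp lies at chr7:30942368-30944029 and Hamp2 at chr7:30922372-30924181, and as near-copies they may share reads.

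Cyp8b1, the sterol 12-alpha-hydroxylase that sets the cholic acid share of bile acids, was 330.4, 390.1, 461 and 277 CPM in the middle. At the pericentral end it was 397, 452, 462 and 280.2 CPM, and at the periportal end 334, 394, 291 and 203 CPM. Both MAFL sections had the middle slightly below both ends, and both MASH sections had it next to the pericentral level. Its difference over all sections was 0.08 (SE 0.08, adjusted p = 0.95).

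The genes with profiles most like Hamp were the lysosomal enzyme Hgsnat (r 0.86), Ces1b (0.84), the complement gene C4b (0.84), the cationic amino acid carrier Slc7a2 (0.82) and the amino acid carrier Slc38a4 (0.81). Cathepsin L (Ctsl, 0.80), the urea cycle enzyme Cps1 (0.78), Cyp2c70 (0.77), Slc8b1 (0.77) and Slc46a3 (0.76) completed the 10, over the same 20 values.

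Genes that control hepcidin did not stand out in the middle. None of 19 tested genes of hepcidin control was called against the mean of the ends, with 11 positive and a median of 0.03. An unadjusted p under 0.05 was reached by 1 for a higher and 2 for a lower middle (357 and 369 of 11359 genes tested). Of the ligands, Bmp2, made by sinusoidal endothelium, was 12.6 CPM in the middle, 13.2 at the pericentral and 8.02 at the periportal end and passed against the latter (0.66, adjusted p = 0.000269). Bmp6 was 2.13, 2.19 and 1.80 CPM. The co-receptor Hjv stood at 79.7, 80.6 and 78.7 CPM, the iron sensor Tfr2 at 433, 411 and 440 CPM, and the protease Tmprss6, which cleaves Hjv, at 380, 396 and 373 CPM. Of the BMP targets, Id3 was lower than at the pericentral end (83.5 against 98.0 CPM, adjusted p = 0.0153), as was the inhibitory Smad6 (5.79 against 8.51 CPM, adjusted p = 0.0203). These were the 2 of 19 genes below that end (background 2.36%). The targets Id1, Smad7 and Atoh8 were slightly higher than there, with no call. They stood at 15.9, 10.5 and 19.2 CPM in the middle against 14.1, 9.02 and 18.6 CPM.

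Of 17 tested genes of iron and haem handling none was called against the mean of the ends. An unadjusted p under 0.05 was reached by 2, both higher, and by 357 of 11359 genes tested in that direction. Against single ends, 5 were above the pericentral end (background 1.79%) and 4 below the periportal end (background 3.76%). The haem scavenger Hpx climbed from 4251 CPM at the pericentral end through 5314 in the middle to 6993 at the periportal end, and passed against both. The iron exporter Slc40a1 was 79.0 CPM in the middle and 65.9 at the pericentral end (adjusted p = 0.00278), with 78.1 at the periportal end. Haem oxygenase Hmox1 was 25 CPM in the middle, 17.2 at the pericentral (adjusted p = 0.0312) and 22 at the periportal end (adjusted p = 0.41).

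In the insulin-like growth factor list, 14 genes were tested and Igfbp2 was the only one called against the mean of the ends (background 0.044%). Igf1 itself climbed along the lobule, at 382, 451 and 522 CPM from the pericentral end to the periportal end, and the middle differed from both (adjusted p = 0.00285 and 0.00683). The other binding proteins Igfbp1 (77.6 CPM in the middle) and Igfbp4 (1198 CPM) had differences of -0.08 and -0.02, with no call. The list's median was -0.0019, as over all genes.

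The 3 other genes called above the mean of the ends were Pigr, Cyp7a1 and Cidea. Pigr, the receptor that carries IgA into bile, was 865, 1039, 843 and 804 CPM in the middle, far above the pericentral end (579 ± 106 CPM, adjusted p = 8.09e-09) and closer to the periportal end (969.9 ± 118 CPM), against which it did not pass (-0.13, adjusted p = 0.203). Cyp7a1, the first and limiting step from cholesterol to bile acids, was 13.7, 83.0, 133 and 88.8 CPM in the middle, below the pericentral end (110 ± 58.1 CPM, adjusted p = 0.00134) and above the periportal end (31.0 ± 18.0 CPM, adjusted p = 4.45e-08). Its difference from the mean of the ends was 0.43 (adjusted p = 0.0371), negative in MAFL-1 (-0.05) and positive in the other 3 sections. Cidea, a lipid droplet fusion protein, had 1 UMI in the middle of each MAFL section and 644 and 99 in those of MASH-1 and MASH-2, with a fitted difference of 0.64 (adjusted p = 0.0062). That value was 0.15 under DESeq2 (adjusted p = 0.9997), 0.14 with both ends pooled (adjusted p = 0.764) and 0.32 without MASH-1 (adjusted p = 0.939), and its highest over the alternatives was 0.71. The calls of Pigr and Cidea held in 11 and 10 of 21 alternatives that tested them, and that of Cyp7a1 in 11 of 22.

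The 3 genes below the mean of the ends had their highest level at the pericentral end. The von Willebrand factor Vwf, of vein endothelium, was 8.44, 4.90, 5.48 and 11 CPM in the middle, 19.6 ± 9.59 at the pericentral and 7.26 ± 2.13 at the periportal end (difference -0.70, adjusted p = 0.0062). The dicarboxylate carrier Slc13a3 was 4.30, 10.5, 9.61 and 9.06 CPM against 43.5 ± 10.2 and 4.35 ± 0.941 (-0.70, adjusted p = 0.0062). The fatty acid binding protein Fabp4 of capillary endothelium was 15.6, 13.0, 27.2 and 32.5 CPM against 43.7 ± 21.5 and 21.0 ± 7.26 (-0.45, adjusted p = 0.0124). Vwf and Fabp4 did not pass against the periportal end (adjusted p = 0.978 and 0.764), although the middle was below both ends in 2 of 4 sections for Vwf and in 3 of 4 for Fabp4, and Slc13a3 was above it (0.99, adjusted p = 7e-05). With library totals in place of TMM none of the 3 was called, and when both ends were pooled before the fit 32 genes were lower.

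**Figure D4:**
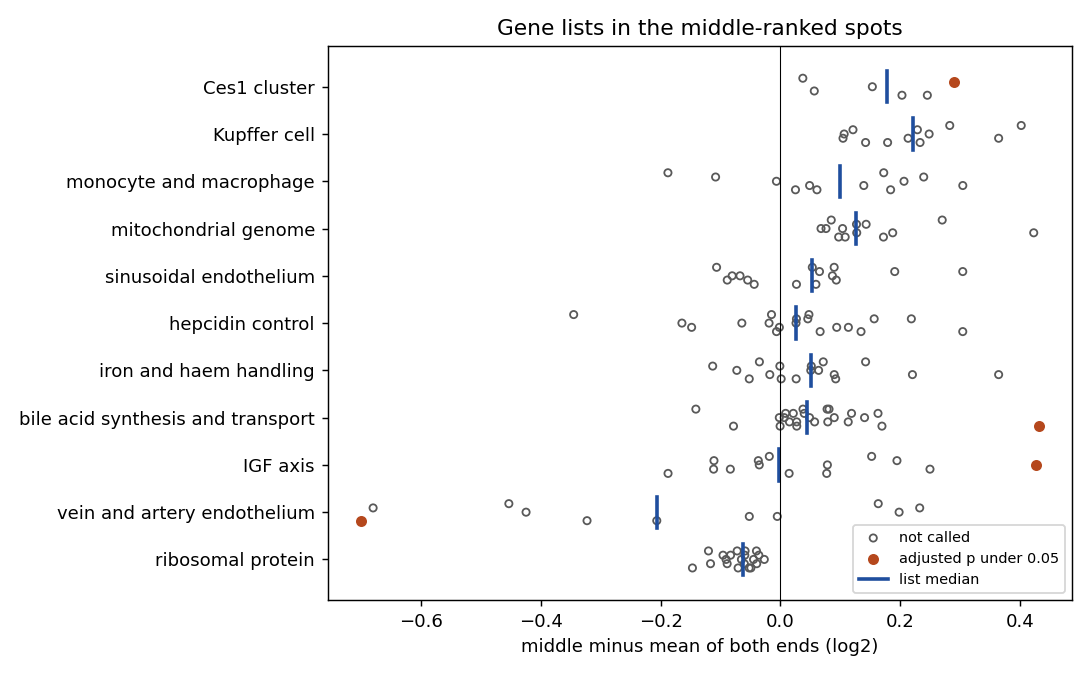
Fitted log2 difference of the middle-ranked spots from the mean of both ends for each tested gene of 11 gene lists; filled red points passed an adjusted p of 0.05, open points did not, and the blue bar is the list's median. All 12 Kupffer cell genes lie above 0, and the vein and artery endothelium list has its median at -0.21.

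Transcripts of Kupffer cells, the resident macrophages of the liver, had positive differences from the mean of the ends that did not pass the test. All 12 genes of the list had a positive difference from the mean of the ends, with a median of 0.22 against -0.0019 over all genes tested; 11 had an unadjusted p under 0.05 for a higher middle, as had 357 of the 11359 genes tested, and none passed the adjustment. Against the pericentral end 6 of 12 passed (background 1.79%), and against the periportal end 0 of 12, where the lowest adjusted p was 0.135 for Folr2 (0.24). Slc40a1 and Hmox1 stand in this list and in that of iron handling. The haemoglobin scavenger receptor Cd163 was 14.0, 19.0, 15.5 and 10.3 CPM in the middle, above both ends in 4 of 4 sections (0.40, adjusted p = 0.112). Clec4f, the Kupffer cell lectin, was 102, 126, 146 and 155 CPM and above both ends in 2 of 4 sections (0.18, adjusted p = 0.576). Marco climbed from 18.3 CPM at the pericentral end to 30.8 in the middle (adjusted p = 1.1e-06) and was 35.7 at the periportal end. Timd4, a receptor of resident macrophages, was 9.17 CPM in the middle and 9.36 at the periportal end. The summed level of the list was 642 to 1158 CPM in the middle, 553 to 1044 at the pericentral and 590.5 to 1173 at the periportal end, and it was above both ends in 2 of 4 sections. In spots of several cells, more Kupffer cells and more RNA per cell cannot be told apart, and the part of these cells in the middle's other differences was not tested.

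Of 11 tested genes of vein and artery endothelium 8 had a negative difference, and the median was -0.21 against -0.0019 over all genes tested. Vwf was called (background 0.0264%), and 5 were below the pericentral end (background 2.36%). Thrombomodulin (Thbd) was below both ends in 4 of 4 sections (2.63, 5.43 and 3.23 CPM in the middle, pericentral and periportal spots, -0.68, adjusted p = 0.17). The Wnt ligand Wnt2 and its enhancer Rspo3, made by central vein endothelium, stood between the ends and passed against both. Rspo3 was 3.81 CPM in the middle against 9.22 and 1.75, and Wnt2 3.02 against 6.52 and 1.14.

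Of 24 tested genes of bile acid synthesis and transport, 20 had a positive difference. Their list's median was 0.04 against -0.0019 over all genes tested, and Cyp7a1 alone was called (background 0.044%). The uptake carrier Slco1b2 was 889.6 CPM in the middle, 1265 at the pericentral and 475 at the periportal end, passing against both. The bile salt pump Abcb11 was 158 CPM in the middle and 151 at the pericentral end, with no call.

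The genes of the series' title and its macrophage field did not stand out in the middle. None of the 8 was called against the mean of the ends. In edgeR 1 had an unadjusted p under 0.05 for a higher and 1 for a lower middle (357 and 369 of 11359 genes tested). The cytokine Mif was 219, 236, 262 and 239 CPM, below both ends in 4 of 4 sections by a small margin (-0.07, adjusted p = 0.839). Thrsp, a regulator of lipogenesis, was 26.4, 105, 366 and 447 CPM (-0.21, adjusted p = 0.889). Cd74 was 92.3, 82.9, 240 and 360 CPM (0.04, adjusted p = 0.971). Trem2, Gpnmb, Spp1 and Cxcr4 had differences of -0.35, -0.03, -0.20 and -0.14. Cd44, a hyaluronan receptor, was the exception in passing against 1 end: it was 13.7 CPM in the middle and 9.97 at the pericentral end (adjusted p = 0.0246).

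The difference of the middle from the ends was compared between MASH and MAFL as an interaction, with 2 sections a group. No gene passed (0 of 11359, 0%), 589 had an unadjusted p under 0.05, and the lowest adjusted p was 0.0679. DESeq2 called 4. Without MAFL-1 the count was 6, without MAFL-2 it was 18, without MASH-1 12 and without MASH-2 83, with the lone section assumed to vary like the others. For Igfbp2 the interaction was 0.11 (SE 0.09, adjusted p = 0.996), with middle minus ends at 0.33 and 0.40 in the MAFL sections and 0.60 and 0.37 in the MASH sections, which overlap.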

How the data were processed

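The authors aligned and counted the Visium reads with Space Ranger, version 1.2.2 according to the matrix headers (per the file headers), on mm10, per the submitters' processing notes. The deposited values are counts: UMIs of 1 gene in 1 spot, unscaled, for 31253 features. Spot positions were not used here.

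Counts were summed per section and rank class (12 sums) and fitted in edgeR 4.0.16 (R 4.3.3): TMM, filterByExpr, robust quasi-likelihood fit, section as block, Benjamini-Hochberg adjusted p of 0.05 over all 11359 genes tested. A peak needed a positive difference from each end, both past 0.05. CPM values use TMM factors over 20 sums (5 rank classes in each section), while the fits use their own, so folds of CPM and fitted differences can differ slightly. Python 3.11.15 with numpy 2.4.6 and pandas 2.3.3 did the ranking. The fits were tested on simulated data. Alternatives included DESeq2 1.42.0 and limma 3.58.1.

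Genes were named if peaking or dipping with at least 20 CPM and beyond each end in 4 of 4 sections (up to 12 each way), with the 4 markers, 8 title and field genes and up to 4 members of each described list with the smallest p; further members were chosen after their values were seen. The rule passes over predicted genes, sex-linked genes and those of Mup, haemoglobin, ribosomal proteins and the mitochondrial genome. The spots, the 41 gene lists and the tests were chosen with earlier results of these data known.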

Additional observations from a re-analysis of the deposited data

Results flagged for a closer look

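The difference of the middle from the ends ran in opposite directions in the 2 groups for 3 of the named genes, and its interaction did not pass in edgeR for any of them. For Cyp8b1 it was -0.14 and -0.11 in the MAFL sections and 0.33 and 0.21 in the MASH sections, an interaction of 0.39 on the log2 scale (adjusted p = 0.137). For Cidea it was -0.84 and -0.67 against 0.74 and 0.36, an interaction of 1.85 (adjusted p = 0.996), with 1 UMI in the middle of each MAFL section. For Trem2 it was 0.64 and 0.04 against -0.55 and -0.30, an interaction of -0.74 (adjusted p = 0.957). Few MAFL spots held a Trem2 UMI, so its MAFL values rest on few transcripts. The shares of pericentral, middle and periportal spots with one were 2.94, 3.19 and 0.983% in MAFL-1. In MAFL-2 they were 4.51, 4.79 and 5.32%. The 3 genes were picked by these signs from a longer set of named genes. With 2 sections a group, such a split in sign can arise without a difference between the groups. The place of the middle also differed. For genes at least 2-fold apart between the ends, it stood 0.67 and 0.49 of the way to the periportal level in MAFL-1 and MAFL-2. In MASH-1 and MASH-2 it stood at 0.28 and 0.42. Place and group thus cannot be told apart, and the part of place in these signs was not tested. Whether 3 genes are more than signs alone would give was not tested, so their values are a description.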

How the results depend on the processing

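Over 22 alternatives no called difference changed sign. Differences that were not called did: Gpnmb ran from -0.14 to 0.28, Hamp2 from -0.10 to 0.14, Cxcr4 from -0.42 to 0.25, Cd74 from -0.04 to 0.12, Trem2 from -0.51 to 0.04, Spp1 from -0.69 to 0.05 and Cyp8b1 from -0.01 to 0.15. The difference of Igfbp2 from the mean of the ends was called in 19 and ranged from 0.25 to 0.52, and that of Ces1e in 18, from 0.17 to 0.36. Hamp ranged from 0.14 to 0.26 and was called only with the score from held-out genes (0.23). The counts depended on the choices: in what follows they are genes above and below the mean of the ends, peaking, dipping, and differing between MASH and MAFL, against 5, 3, 4, 0 and 0. With no filter on low counts they were 46, 40, 9, 8 and 45. With the score from held-out genes they were 22, 36, 7, 9 and 13. With narrow classes 11 were above, 6 below, 1 dipped and 12 differed between the groups. With both ends pooled 8 were above, 32 below and 100 differed, and no peak can be called. With the ends moved inward 0 were above, below or peaking and 3 differed. Ranks within UMI bins, which keep 18.8 to 77.2% of the middle spots, gave 11 above, 2 peaking and 2 dipping. A minimum of 10 UMIs in every sum gave 3 above, and library totals 0 below. DESeq2 gave 2 peaking and 4 between groups, spots thinned to 5000 UMIs 2 and 12. The z-scored score gave 13 between groups, and the score without Cyp2f2 and Cyp2e1 gave 7 below and 6 between groups. Leaving out each section in turn gave 3 to 12 above, 1 to 11 below, 2 to 3 peaking, 0 to 2 dipping and 6 to 83 between groups. All 12 Kupffer genes stayed positive in all 22.

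The labels give same-numbered sections a shared number and nothing more. Their deviations in the difference of the middle from the ends correlated at -0.107 over 4176 genes. In the pericentral, middle and periportal levels the correlations were -0.158, -0.213 and -0.167. With 2 sections a group these values cannot tell whether same-numbered sections share anything else. With the replicate number as block in place of the section, 0 genes were above, below or peaking. The crossed pairing, chosen after seeing the data, gave 0 above, 0 below, 1 peaking and 50 between groups. For the class comparisons both blocks took out group and replicate number and left the remaining differences between sections in the error. The comparison between the groups kept the section as block and let class differences vary with replicate number. Sections number 2 a group, which limits every comparison of the groups.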

Other observations

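Of 12 tested monocyte and macrophage genes 9 had a positive difference from the mean of the ends. The median of the 12 was 0.10, against -0.0019 over all genes tested. In edgeR 5 had an unadjusted p under 0.05 for a higher middle, as had 357 of all 11359 genes, and 0 were called. The negative ones were Ly6c2 (-0.19), Ccr2 (-0.11) and Fcer1g (-0.01). Cybb, the oxidase subunit of phagocytes, was 22.8 CPM in the middle against 17.3 and 19.5 at the pericentral and periportal ends (log2 0.30, adjusted p = 0.287). The macrophage marker Adgre1 was 22.4 against 17.8 and 20.2 CPM (0.24, adjusted p = 0.422). Both were above both ends in 4 of 4 sections. The mannose receptor Mrc1, of sinusoidal endothelium and macrophages, was too, at 39.99 against 36.8 and 33.3 CPM (0.19, adjusted p = 0.465). Lipid-associated macrophage genes had a median of -0.10 over 12 tested, and Cd63, a lysosomal tetraspanin, was 28.0 CPM in the middle and 46.4 at the periportal end (adjusted p = 8.96e-06).

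Of 21 pericentral hepatocyte genes kept out of the score, 14 were below the pericentral end in the middle (background 2.36%) and 15 above the periportal end (background 3.92%). Of 14 periportal ones, 8 were above the pericentral end (background 1.79%) and 11 below the periportal end (background 3.76%). Zonated genes of both lists go with the score that ranked the spots, so these counts are a description. The urea cycle enzyme Cps1 was 1213 CPM in the middle, 802 at the pericentral (adjusted p = 6.96e-07) and 1291 at the periportal end (adjusted p = 0.425). Of 15 sinusoidal endothelium genes 11 were above the periportal end and 5 below the pericentral end, against the same backgrounds of 3.92% and 2.36%. All 13 mitochondrially encoded genes had a positive difference from the mean of the ends, none called, and 11 were above the periportal end (background 3.92%). All 20 ribosomal protein genes had a negative one, none called, with a median of -0.06.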
